A study of Mus musculus with 14 samples.

Results

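Rag1, Rag2 and Dntt are the genes whose products cut and diversify antigen receptor genes, and their surroundings were examined in 9 lists of ChIP-seq peaks from mouse B-lineage cells. A peak was counted when it overlapped the gene body extended by 50 kb on either side (build GRCm38). The windows of Rag1 and Rag2 overlap and were joined as the Rag locus, chromosome 2, 101574712 to 101699532. The Dntt locus is chromosome 19, 40979275 to 41109525. These 3 genes are among 21887 protein-coding genes of the RefSeq table used, and the loci held 143 of the 196179 peaks of the 9 lists.

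The study asked how the C-terminal domain of EBF1, a transcription factor that commits progenitors to the B lineage, bears on the recruitment of Brg1 to chromatin. Brg1, encoded by Smarca4, is the ATPase of a chromatin remodelling complex. The fetal liver cells were C57BL/6 EBF1 -/- c-kit+ lymphocyte progenitors from embryos of day 16 to 18, so the controls lack endogenous EBF1 as well. They were transduced with a pMys vector carrying IRES-GFP and cultured on OP9 cells with IL7, SCF and Flt3 for 14 to 20 days. The vector was empty or carried EBF1 wt, dC (without the C-terminal domain), dPLD (without residues 480 to 520) or F-GATA3 (whose C-terminal domain is replaced by TA1 of GATA3). The labels call the cells with wt or F-GATA3 pro-B cells, those with dC or dPLD partly blocked before that stage, and those with the empty vector blocked before it. The A-MuLV cells are EBF1 fl/fl pro-B cells transformed by Abelson virus, derived from fetal liver, in which exogenous wt or dC replaces endogenous EBF1. Brg1 was profiled in all 7 of these conditions, and EBF1 in the A-MuLV cells alone. Each condition had 1 library, so no difference was tested and nothing measures how replicates would vary.

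V(D)J recombination joins gene segments into immunoglobulin and T-cell receptor genes. RAG1 and RAG2 form the enzyme that cuts at the recombination signals, and terminal deoxynucleotidyl transferase, the product of Dntt, adds bases to the open ends without a template. Rag2 (101624712 to 101632528, plus strand) and Rag1 (101638252 to 101649532, minus strand) lie side by side and point towards each other. Dntt spans 41029275 to 41059525 on the plus strand. Distal enhancers, among them Erag upstream of Rag2, are known to drive Rag1 and Rag2 in developing lymphocytes. The position of Erag was not used here, and the sites below were not matched to it.

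The sequences around the 3 gene starts are shown because Brg1 peaks reached them to different extents. Each runs from 250 bases before to 50 bases after the first base, 5′ to 3′ on the gene's strand, as given by RefSeq for GRCm38.p6. Capitals mark matches to 5 motifs searched on both strands. The motifs were CCCNNGGG (an EBF palindrome), CAGGTG (an E box of E proteins), TGTTTAC (FOXO), TGTGGT (RUNX) and GAGGAAGT (PU.1).
Rag1 (chr2:101649483-101649782, minus strand): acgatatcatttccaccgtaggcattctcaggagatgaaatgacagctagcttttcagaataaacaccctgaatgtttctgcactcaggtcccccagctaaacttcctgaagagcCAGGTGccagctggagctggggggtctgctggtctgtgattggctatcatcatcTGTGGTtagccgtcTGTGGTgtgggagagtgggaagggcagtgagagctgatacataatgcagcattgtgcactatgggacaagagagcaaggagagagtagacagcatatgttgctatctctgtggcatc
Rag2 (chr2:101624462-101624761, plus strand): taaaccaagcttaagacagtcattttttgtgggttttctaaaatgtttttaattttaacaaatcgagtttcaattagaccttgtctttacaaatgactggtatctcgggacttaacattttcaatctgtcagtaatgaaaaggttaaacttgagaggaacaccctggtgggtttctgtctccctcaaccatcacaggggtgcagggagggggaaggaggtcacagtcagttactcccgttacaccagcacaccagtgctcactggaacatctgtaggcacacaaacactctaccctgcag
Dntt (chr19:41029025-41029324, plus strand): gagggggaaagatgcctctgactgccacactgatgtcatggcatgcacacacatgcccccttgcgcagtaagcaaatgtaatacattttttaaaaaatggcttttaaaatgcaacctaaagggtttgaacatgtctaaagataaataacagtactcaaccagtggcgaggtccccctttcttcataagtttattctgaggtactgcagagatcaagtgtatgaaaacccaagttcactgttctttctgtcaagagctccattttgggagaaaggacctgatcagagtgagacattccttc
The Rag1 window held CAGGTG at position -135 and TGTGGT at -81 and -67, counted from the first base of the gene as 0, and none of these overlapped another. The Rag2 and Dntt windows held none of the 5. Of 32851 promoter windows of the same length, 13.7% held CCCNNGGG, 20.2% CAGGTG, 3.65% TGTTTAC, 16.8% TGTGGT and 3.2% GAGGAAGT.

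Around Rag2, Brg1 peaks were called with every EBF1 version and not with the empty vector. The window of Rag2 held 8 fetal liver peaks with wt, 7 with dC, 7 with dPLD, 8 with F-GATA3, and the empty vector had 0. For Rag1 the counts were 9, 8, 7, 8 and 1, and the empty-vector peak lay at the far edge of its window, inside Traf6. Over all protein-coding genes, 63.5% had an empty-vector peak within 50 kb, 74.7% a wt, 74.5% a dC, 73.5% a dPLD and 72.8% an F-GATA3 peak. Of the 9 wt peaks in the Rag locus, 8 overlapped no empty-vector peak (88.9%, exact Clopper-Pearson 95% interval 51.8 to 99.7%), against 63.9% of all wt peaks. Such peaks are called gained. A gained peak lay within 50 kb of 67.5% of genes, and at least 8 of them, as at Rag2, within 50 kb of 3.29%. Intervals given here cover counting error only, and neighbouring peaks of a locus are not independent.

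**Figure D1:**
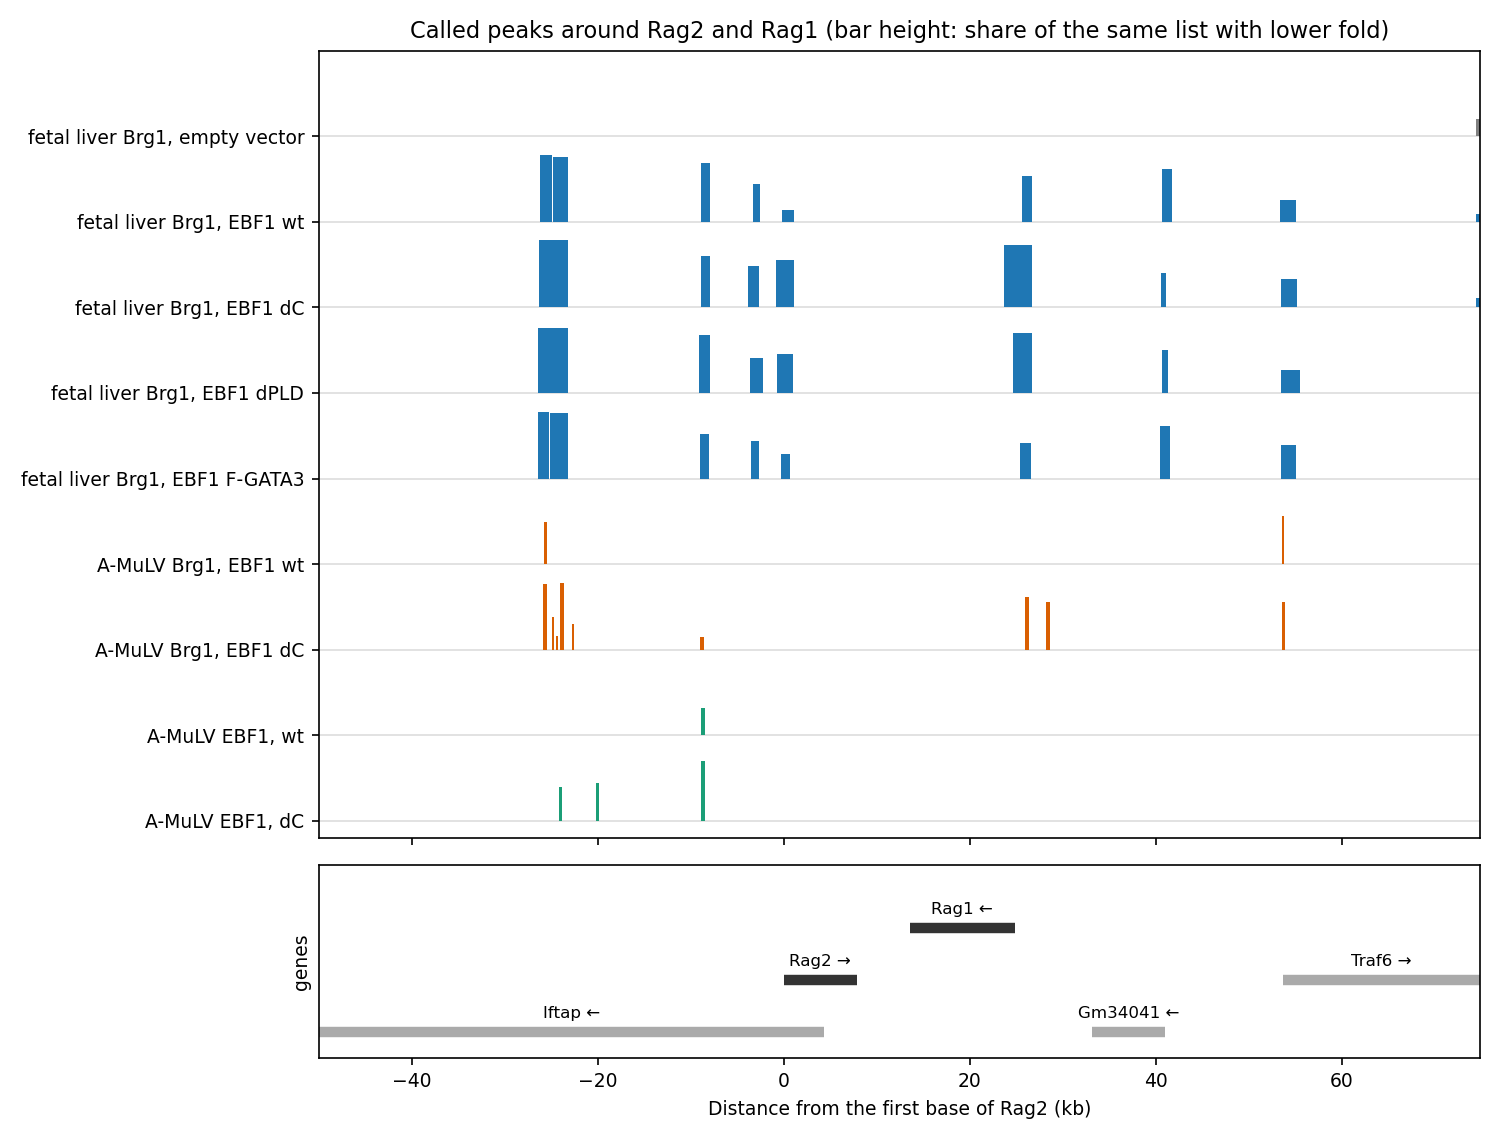
Called peaks of the 9 lists (1 library each) by distance in kb from the first base of Rag2. Bar height is the share of the same list with a lower fold, on a small fixed base, narrow peaks are drawn at a minimum width, and genes are drawn beneath with arrows for their strand. The 4 fetal liver lists with an EBF1 version share 7 positions at which the empty vector has no peak.

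The strongest fetal liver site lay 25.7 kb upstream of Rag2, in the body of Iftap, at chromosome 2, 101598313 to 101601527. Iftap is transcribed from the other strand and overlaps the start of Rag2. The fold enrichment of a peak is the authors' ratio of ChIP to background signal at its summit. It places a peak among the others of its own list. Folds of different lists come from 1 library each of unknown depth, and differences between them were not tested. The highest fold at this site was 18.2 with wt, 18.5 with dC, 13.5 with dPLD and 15.3 with F-GATA3. It exceeded 97.4%, 98.1%, 94.0% and 97.2% of the peaks of the respective lists, so the site stood near the top of all 4. With wt and F-GATA3 it was called as 2 peaks, separated by 111 and 103 bp, and with dC and dPLD as 1 peak of 3181 and 3130 bp. This lowers the dC and dPLD counts of the locus by 1. The covered length of the locus was 10130 bp with wt, 13279 bp with dC, 12221 bp with dPLD, 9847 bp with F-GATA3 and 644 bp with the empty vector.

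Of the other sites upstream of Rag2, the one at 8.7 kb (101615555 to 101616753) had folds of 11.4 with wt, 9.17 with dC, 10.1 with dPLD and 7.47 with F-GATA3. The site at 2.9 kb (101620866 to 101622413) had 7.28, 7.63, 6.63 and 6.78 in the same order. Both were called with all 4 versions and neither with the empty vector. The first ranked above 84.9% of the wt list and the second above 50.6%. At the second, the dC, dPLD and F-GATA3 peaks reached the promoter window of another annotated start of Iftap, and the wt peak did not.

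At the Rag2 start itself a peak was also called with all 4 versions, with folds of 4.86 (wt), 8.45 (dC), 7.03 (dPLD) and 5.72 (F-GATA3). With wt and F-GATA3 the fold was lower at each step from the distal site to this start, but with dC and dPLD it was higher at the start than 2.9 kb upstream. The peak was weak in the wt list, of which 7.79% ranked lower, and middling in the dC list, of which 65.5% did. These peaks covered 290 (wt) or 300 of the 300 bases shown above for Rag2. Next to Rag1, the summits lay 1.4 kb upstream of the start, with folds of 8.34, 12.7, 10.8 and 6.59. Here the dC peak (3024 bp) and the dPLD peak (2068 bp) covered the whole Rag1 sequence printed above, while the wt and F-GATA3 peaks ended 571 and 362 bp short of it. Peaks of dC and dPLD were wider in general, with median widths of 1248 and 1325 bp against 1103 for wt and 1139 for F-GATA3. The part that peak width or cell stage has in this difference was not tested.

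Further upstream of Rag1, peaks were again called with all 4 versions and not with the empty vector, in another order of folds. A site 16.1 kb from its start, over the start of the long noncoding RNA gene Gm34041, had folds of 9.55, 6.81, 7.46 and 8.69 (wt, dC, dPLD, F-GATA3). These exceeded 74.5%, 45.5%, 58.7% and 74.1% of the respective lists, so wt and F-GATA3 ranked higher here. The promoter of Traf6, which encodes a ubiquitin ligase of innate immune signalling, had 5.66, 6.16, 5.59 and 6.42. The exception was the site within Traf6 at the edge of the window (101699093 to 101699901), called with the empty vector (5.14), wt (4.15) and dC (4.44) and not with dPLD or F-GATA3. In all, 7 of the 8 fetal liver sites of the Rag locus were called with all 4 versions, and 0 of these 7 with the empty vector. The same share over all sites of the genome was not computed.

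At 7 of the 8 gained wt peaks of the Rag locus, the 4 summits lay within 32 to 182 bp of each other. The exception (1767 bp) was the second of the split peaks, where the dC and dPLD summit fell on the first. Over the 19953 wt peaks called with all 4 versions in the genome, the median spread was 106 bp, and 72.5% were within 200 bp. At Dntt the 4 summits lay within 200 bp at 6 of 10 such wt peaks (60%), with a median of 88.5 bp, against a median of 69.5 bp at the Rag locus.

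Around Dntt, some Brg1 peaks were present with the empty vector too. The Dntt window held 4 fetal liver peaks with the empty vector, 12 with wt, 13 with dC, 11 with dPLD and 10 with F-GATA3, covering 3419, 19210, 22516, 24406 and 21108 bp. Of the 12 wt peaks, 9 were gained (75.0%, 42.8 to 94.5%), an interval that spans the 63.9% of all wt peaks. At least 9 gained peaks lay within 50 kb of 1.87% of genes. Of the 14 fetal liver sites, 8 were called with all 4 versions, 3 of them with the empty vector as well. The same share over all sites of the genome was not computed.

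**Figure D2:**
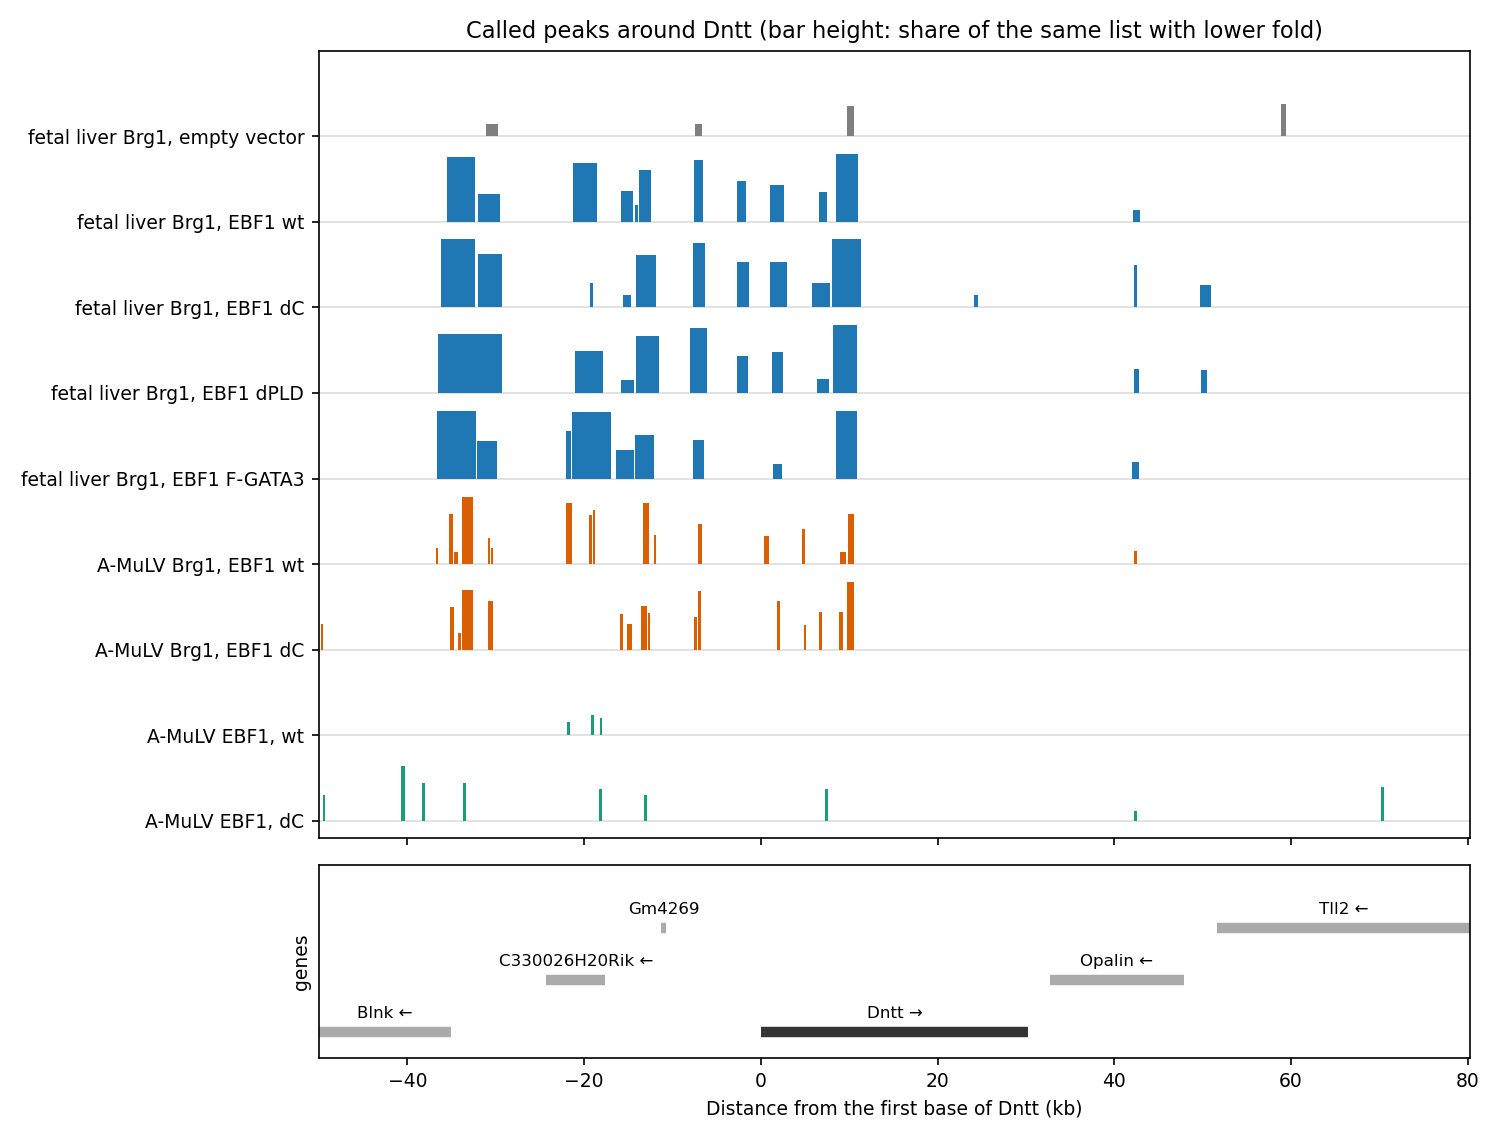
Called peaks of the 9 lists (1 library each) by distance in kb from the first base of Dntt, drawn as for Rag2. With wt, dC and F-GATA3 in fetal liver the highest bars stand at 10.0 kb, where the empty vector also has a peak, and near Blnk. With dPLD they stand at 10.0 kb and 6.9 kb upstream of Dntt, and with the empty vector the highest is at 59.3 kb.

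With wt, dC and dPLD the strongest peak of the locus lay inside Dntt, 10.0 kb downstream of its start (site 41037379 to 41040660). Its fold was 5.78 with the empty vector, 25.6 with wt, 24.8 with dC, 25.1 with dPLD and 17.0 with F-GATA3. In the empty-vector list 38.4% of peaks had a lower fold, against 99.7%, 99.7%, 99.9% and 98.4% in the other 4. The empty-vector summit (41039267) fell within the positions of the other 4 peaks. Because the empty vector had a peak there, this site is not among the gained peaks. A site 6.9 kb upstream of Dntt also had an empty-vector peak (4.77). Its folds were 12.7, 14.1, 14.0 and 6.89 with wt, dC, dPLD and F-GATA3. These exceeded 89.1%, 93%, 94.8% and 51.8% of the respective lists, so F-GATA3 ranked near the middle there. No list had a peak over the start of Dntt. The nearest fetal liver peaks ended or began 982 to 1295 bp from the sequence shown, apart from the empty vector at 6417 bp.

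The EBF1 versions parted at several Dntt sites. Peaks 2.0 to 2.2 kb upstream of the start (7.64 with wt, 8.26 with dC, 6.76 with dPLD) and 6.8 to 7.4 kb downstream (6.37, 5.88 and 5.00) were not called with F-GATA3. At 1.8 to 1.9 kb downstream all 4 were called, with folds of 7.17, 8.19, 7.23 and 5.05. Near the start and in the first part of the gene, F-GATA3 thus had the fewest peaks. Over the whole locus, 7 of the 9 gained peaks were called with F-GATA3 (77.8%, 40 to 97.2%), against 70.0% of all gained peaks. The F-GATA3 list was also the shortest of the 4 versions, with 25072 peaks. A peak within Dntt at 24.4 kb was called with dC alone (4.99), and one between Opalin and the end of Tll2, 50.1 kb away, with dC (5.64) and dPLD (5.59). Upstream of Dntt and clear of any listed gene, sites at 15.0 kb (6.53, 4.92, 4.85 and 6.00 with wt, dC, dPLD and F-GATA3) and 12.9 kb (9.39, 9.54, 9.93 and 7.41) had all 4 versions and no empty-vector peak. So did a site in Opalin at 42.4 kb (4.89, 7.75, 5.65 and 5.19). The empty vector had 1 peak of its own, in Tll2 at 59.3 kb (5.92).

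The order was different 19.1 kb upstream of Dntt, in the long noncoding RNA gene C330026H20Rik. There the highest fold was 11.5 with wt, 5.88 with dC, 7.39 with dPLD and 14.4 with F-GATA3, above 85.1%, 28.9%, 57.6% and 96.2% of the respective lists. The dC peak spanned 398 bp, against 2751 bp with wt, 3149 bp with dPLD and 4317 bp with F-GATA3. A further peak 21.7 kb upstream of Dntt (41007282 to 41007803, fold 7.89) was called in fetal liver with F-GATA3 and in no other fetal liver list. At the 19.1 kb site F-GATA3 and wt, the versions whose cells are labelled pro-B, thus ranked highest and dC lowest. The same held at the 15.0 kb site, but F-GATA3 ranked lowest of the 4 versions at 6.9 kb, and dC ranked highest over Blnk. Any part of cell stage in these orders was not tested.

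**Figure D3:**
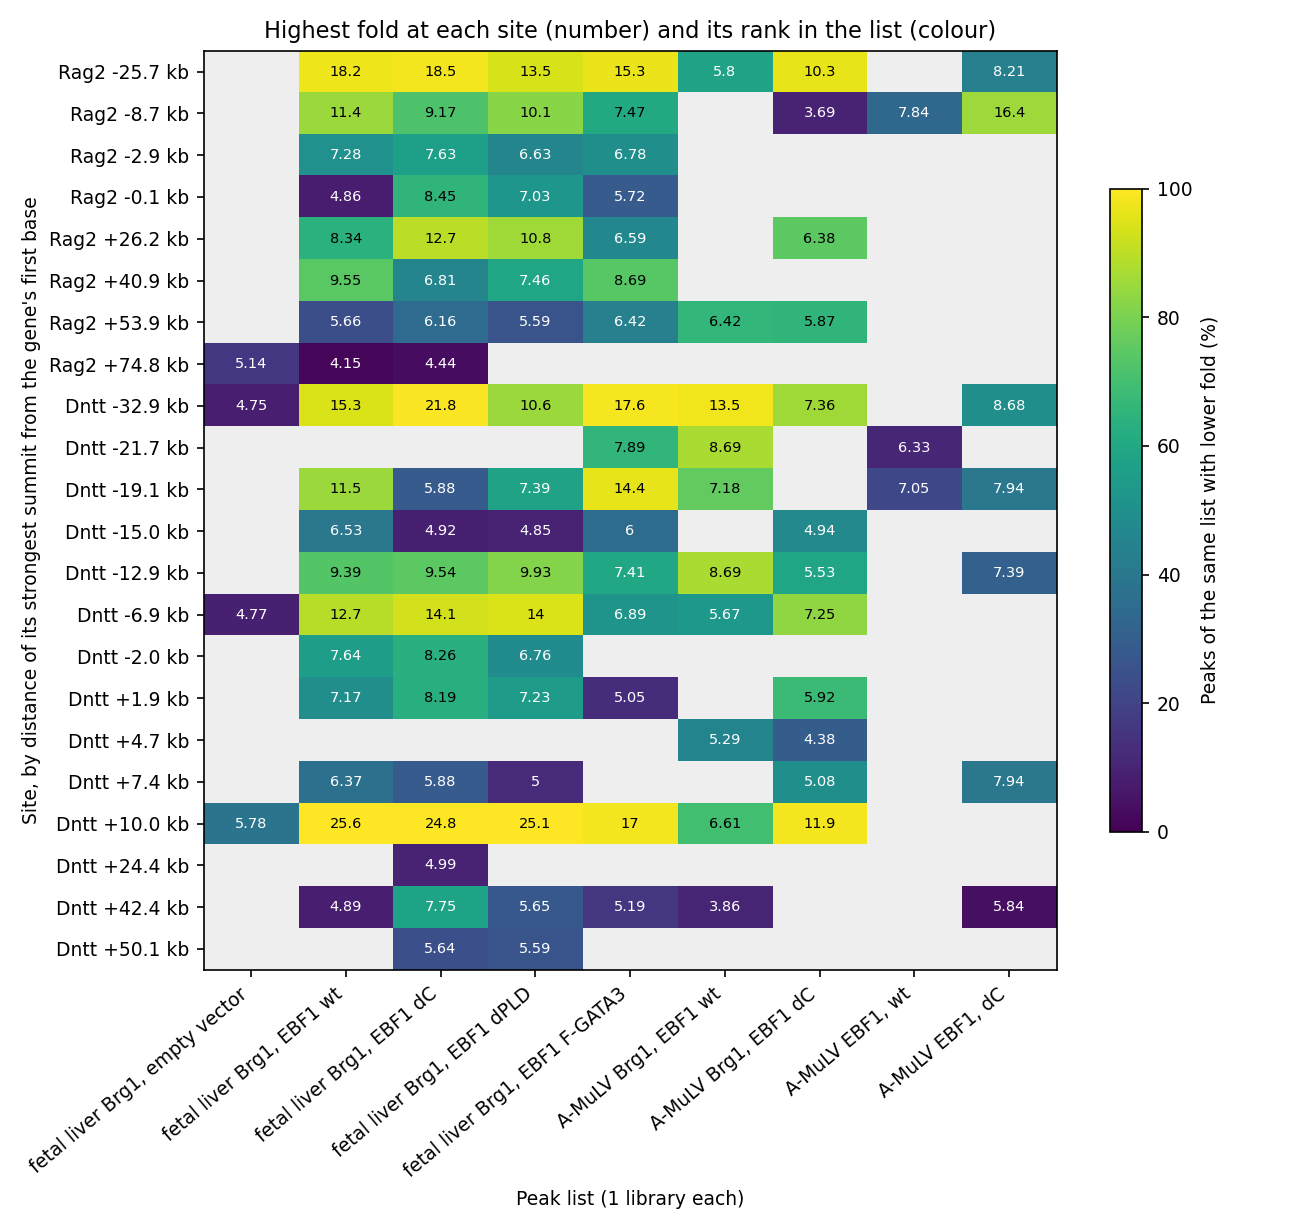
Highest fold at each site (number in the cell) and its rank within the list (colour, % of peaks with a lower fold) for sites called in fetal liver with an EBF1 version or in more than 1 list. Rows are sites by distance from the first base of Rag2 or Dntt, columns are lists of 1 library each, and grey means no peak. The empty-vector column is grey at all Rag2 rows but +74.8 kb.

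A stretch over and upstream of the start of Blnk, which encodes an adaptor of pre-B-cell receptor signalling, had peaks in 8 of the 9 lists (40992526 to 41000048). In fetal liver the peaks over the Blnk start had folds of 15.3 with wt, 21.8 with dC, 10.6 with dPLD and 17.6 with F-GATA3. Their summits (40995740 to 40996341) lay upstream of that start (40994221). The A-MuLV peaks over the start, with summits at 40994245 and 40994166, had 6.58 with wt and 5.51 with dC. Further upstream, A-MuLV peaks had 13.5 with wt (summit 40995753) and 7.36 with dC (summit 40995786). The empty vector had no peak over the Blnk start.

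Taking both loci, all 17 gained peaks were called with dC and with dPLD (80.5 to 100%), and 15 of 17 with F-GATA3 (88.2%, 63.6 to 98.5%). Over all 18765 gained peaks of the genome, 76.3% were called with dC, 77.2% with dPLD, 70.0% with F-GATA3 and 57.3% with all 3. Strong gained peaks were shared more often in general. Among gained peaks with a fold of at least 7.64, the median of the 17, all 3 versions were called at 82.1%, and at 8 of the 9 such peaks of the loci. Of the 17 gained peaks of the loci, strong and weak, 15 were called with all 3 versions (63.6 to 98.5%), against 57.3% of all gained peaks. That interval takes neighbouring peaks as independent, which they are not, and no interval was made for the 8 of 9. With lists of equal length, 5 gained peaks were left at each locus, and with a 10 kb window 4 at the Rag locus and 3 at Dntt.

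**Figure D4:**
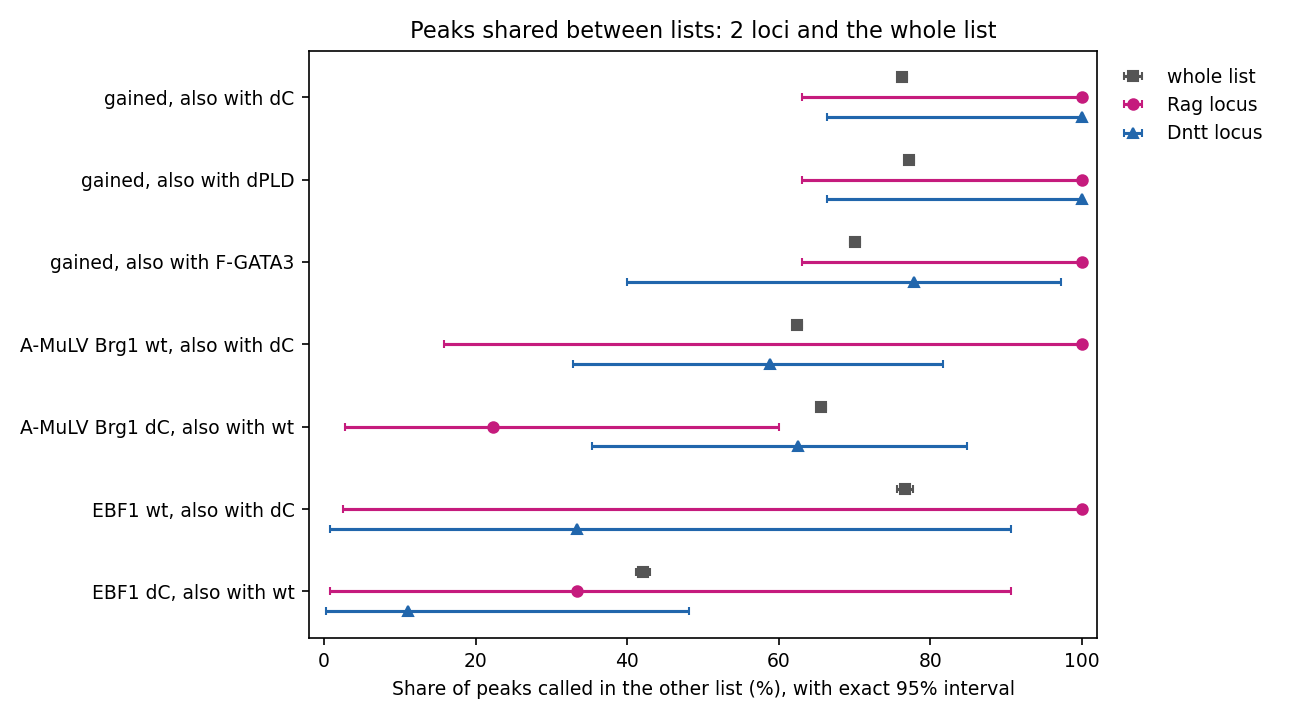
Share of peaks (%) also called in a second list, in the Rag locus (circles), the Dntt locus (triangles) and the whole list (squares), with exact 95% intervals. The locus intervals are wide, and of those drawn the one for A-MuLV Brg1 dC peaks of the Rag locus (22.2%) lies below the whole-list value. That share counts the distal site as 4 peaks, and by site it is 2 of 6, with an interval that spans the value for all sites.

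In A-MuLV cells the Rag locus held more Brg1 peaks with dC than with wt. There were 2 peaks with wt, covering 614 bp, and 9 with dC, covering 3210 bp. The 2 wt peaks, 25.7 kb upstream of Rag2 (fold 5.80) and at the Traf6 start (6.42), were both called with dC, where the highest folds of those sites were 10.3 and 5.87. Sites called with dC and not with wt lay 22.7 kb upstream of Rag2 (4.49), 8.7 kb upstream of Rag2 (3.69), 1.3 kb upstream of Rag1 (6.38) and 3.5 kb upstream of Rag1 (5.87). With dC the distal site was called as 4 peaks, the highest above 96.4% of its list. Neither list had a peak at the Rag2 start.

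Of the 9 dC peaks of the Rag locus, 2 were called with wt (22.2%, 2.81 to 60%), against 65.6% of all A-MuLV Brg1 dC peaks. That count takes the distal site as 4 peaks. Counted by site, after joining overlapping peaks of the 9 lists, 2 of 6 dC sites were called with wt (33.3%, 4.33 to 77.7%), an interval that spans the 70.3% of all dC sites. In the other direction 62.4% of all wt peaks were called with dC. Of all protein-coding genes, 65.7% had a wt and 65.6% a dC peak within 50 kb, and 0.589% had an excess of dC over wt of at least 7 peaks, the difference at Rag2. Of those 7 peaks, 3 are further pieces of the distal site that wt also has. By site the difference at Rag2 was 4, and 1.33% of genes had at least as large an excess. The A-MuLV Brg1 lists reach down to a −log10 q of 1.37 (wt) and 1.33 (dC), below the other lists. With a −log10 q of at least 10, the floor of the fetal liver and EBF1 lists, the counts were 0 and 3.

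Around Dntt the A-MuLV lists held 17 peaks with wt and 16 with dC. A dC peak met 10 of the 17 wt peaks (58.8%, 32.9 to 81.6%), close to the 62.4% of the whole wt list. Counted by site, 5 had both, 4 wt alone and 4 dC alone, so 5 of 9 wt sites were shared (55.6%, 21.2 to 86.3%), against 69.6% of all wt sites. The intragenic site at 10.0 kb had folds of 6.61 with wt and 11.9 with dC, above 69.8% and 98.1% of the lists. In C330026H20Rik, by contrast, the sites at 21.7 kb (8.69) and 19.1 kb (7.18) upstream of Dntt had a wt peak and no dC peak. In fetal liver the first was called with F-GATA3 alone and the second ranked highest with F-GATA3 and wt. The order of the A-MuLV counts at Dntt turned with the setting, with 6 wt and 3 dC peaks at a −log10 q of at least 10, and 11 and 14 in lists of equal length.

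The Rag locus held 1 EBF1 peak with wt, which was also called with dC, and 3 with dC. Both forms were called 8.7 kb upstream of Rag2, with a fold of 7.84 for wt (above 33.6% of its list) and 16.4 for dC (above 85.2%). The EBF1 summits were at 101616030 (wt) and 101616068 (dC), and the fetal liver Brg1 summits of that site ranged from 101616008 to 101616045. The other 2 dC peaks lay 24.0 kb (8.21) and 20.0 kb (8.76) upstream of Rag2. The first fell within the strongest fetal liver Brg1 site, at 101600570 to 101600902. The second met no Brg1 peak of any list. No EBF1 peak lay at the start of Rag1, Rag2 or Dntt.

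At the Dntt locus EBF1 wt had 3 peaks and dC 9, with 1 site in common, 18.1 kb upstream of Dntt (6.79 and 7.94). The other 2 wt peaks, at 21.8 kb (6.33) and 19.1 kb (7.05), lay in C330026H20Rik where A-MuLV Brg1 had wt peaks alone. Both were weak, above 10.8% and 21.8% of the EBF1 wt list. Peaks of dC alone included the strongest of the locus, within Blnk 40.5 kb upstream of Dntt (13.4), and one inside Dntt at 7.4 kb (7.94). The Dntt site at 10.0 kb, the highest for fetal liver Brg1 with wt, had no EBF1 peak.

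Over the genome 37.3% of genes had an EBF1 wt and 53.6% an EBF1 dC peak within 50 kb, while 76.7% of the wt list had a dC peak and 42.1% of the dC list a wt peak. Over both loci the same held for 2 of 4 wt and 2 of 12 dC peaks (16.7%, 2.09 to 48.4%). The dC list is the longer, with 11147 peaks against 6155. With both lists held to 6155 peaks, the Dntt locus had 3 EBF1 peaks in each and the Rag locus 1 with wt and 2 with dC. An A-MuLV Brg1 peak of the same cells was called at 2 of 4 EBF1 wt peaks (72.0% over the genome) and at 4 of 12 EBF1 dC peaks (46.1%).

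Fetal liver wt peaks were found again in A-MuLV wt cells at a lower share at the Rag locus than at Dntt, with intervals that overlap. Of the 9 fetal liver wt peaks at the Rag locus, 2 were called in A-MuLV Brg1 wt (22.2%, 2.81 to 60%) and 5 in A-MuLV Brg1 dC (55.6%, 21.2 to 86.3%). Of the 12 at Dntt, 7 (58.3%, 27.7 to 84.8%) and 8 (66.7%) were. Over all fetal liver wt peaks the shares were 49.7% and 51.1%. Of the fetal liver dC peaks, 4 of 8 at the Rag locus and 8 of 13 at Dntt were called in A-MuLV Brg1 dC, against 50.4% of all. The fetal liver sites at the Rag2 start, 2.9 kb upstream of it and 16.1 kb upstream of Rag1 had no peak in either A-MuLV Brg1 list. Crosslinking differed between the cells, with 2% formaldehyde in fetal liver and 1% in A-MuLV cells, each with EGS for Brg1, and its part in the result was not tested.

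Other genes of V(D)J recombination had fewer gained peaks each. The list held 16 cofactors of cleavage, damage response and end joining, and all 16 had a gained peak within 50 kb (67.5% of all genes did), with a median of 2.5 gained peaks against 1 over all genes. The highest folds were near Xrcc5 (16.5) and Xrcc6 (14.0), which encode the Ku end-binding proteins, Poll (16.5), which encodes a gap-filling polymerase, and Lig4 (10.0), which encodes the ligase of end joining. No member of the list had more than 5 gained peaks, whereas Rag2 had 8 and Dntt 9. An empty-vector peak lay near 14 of the 16 (63.5% of all genes), an EBF1 wt peak near 7 (37.3%) and an EBF1 dC peak near 11 (53.6%). In A-MuLV cells, Brg1 peaks were more numerous with dC at 4, fewer at 10 and equal at 2 of them. Over all genes 26.8% had more and 25.4% fewer.

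By the number of peaks within 50 kb in the 9 lists, the genes most like Rag2 were Mt1, Mt2, Cfap61, Rflnb and Cd6. Their counts differed from those of Rag2 by a mean of 0.89 (Mt1, Mt2 and Cfap61) or 1.00 peaks per list, against a median of 3.78 over all genes. Mt1 and Mt2 are neighbours and had the same counts. Most like Dntt were Acap1 (0.44), Mapkapk3 (0.89), Cabp1 (1.00), Scamp4 (1.00) and Cabp2 (1.11), against a median of 8.67. Likeness in counts says nothing of where the peaks lie.

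The lists held 17687 (empty vector) to 30301 (dC) fetal liver Brg1 peaks, 24493 and 24420 A-MuLV Brg1 peaks (wt and dC) and 6155 and 11147 EBF1 peaks. The depth of the libraries is unknown, and a missing peak call does not show that Brg1 or EBF1 was missing. As a check of the labelled cells, peaks within 10 kb of marker genes were counted, though a peak is no measure of expression. The share of all genes with a peak within 10 kb was not computed, so these counts have no background to be read against. Of 6 B-lineage markers, all 6 had a peak in each list with an EBF1 version and 3 with the empty vector. Of 4 myeloid markers, 4 had one with the empty vector, 2 each with wt, dC and dPLD, 1 with F-GATA3 and 1 in each A-MuLV Brg1 list. T-lineage markers had 4 of 5 in every fetal liver list and 3 of 5 in both A-MuLV Brg1 lists, erythroid markers 2 of 3 in every fetal liver list, and stromal markers 1 of 3 or 0. All these marker counts were the same with wt, dC and dPLD, though the labels give those cells different stages, so they do not measure stage. By the labels, the empty-vector cells differed from the wt cells in stage as well as in EBF1. The parts of stage and of EBF1 in the gained peaks cannot be told apart.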

How the data were processed

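The submitters' processing notes name MACS2 2.1.2, deepTools 3.3.1, Bowtie2 2.3.3.1 and SAMtools 1.9, with GRCm38. No source used here gives the threshold, the handling of duplicates or the input matched to a library. The authors deposited 1 narrowPeak list per ChIP library. Its deposited fold enrichment is a ratio at the summit, the −log10 q (and −log10 p) are taken as deposited, and the deposited score, which restates the −log10 q, was not used. The 5 inputs were not analysed here.

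Peaks on unplaced scaffolds were left out. Peaks were shared when they overlapped by at least 1 bp, and overlapping peaks of the 9 lists were joined into sites. Gene positions came from RefSeq for GRCm38.p6, and strands from its promoter table. Exact Clopper-Pearson 95% intervals were computed in scipy 1.17.1 under Python 3.11.15. The counting was tested on simulated data. The named genes were the members, their neighbours, the 4 pathway genes with the highest gained fold and the 5 genes nearest in counts. The members and lists were chosen with earlier results of these data known. The alternatives tried were lists of equal length, a 10 kb window, an overlap of 50% of the shorter peak and a −log10 q minimum of 20. A minimum of 10 and counts by site were added after seeing the data.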

Additional observations from a re-analysis of the deposited data

Results flagged for a closer look

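The change from wt to dC ran in opposite directions in the fetal liver and A-MuLV libraries in 3 counts, and none of these differences was tested, since each condition had 1 library. At the Rag locus the number of Brg1 peaks with dC minus wt was -1 in fetal liver and 7 in A-MuLV cells. The fetal liver value comes from 2 wt peaks called as 1 with dC, and in bases covered both kinds of cell had more with dC, by 3149 and 2596 bp. At the Dntt locus the number of peaks changed by 1 in fetal liver and by -1 in A-MuLV cells, and the bases covered by 3306 and -700. Counted by site, A-MuLV cells had a difference of 4 at the Rag locus and 0 at Dntt.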

How the results depend on the processing

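With an overlap of 50% of the shorter peak, all 8 counts of gained and shared gained peaks were as given. With a −log10 q of at least 20, A-MuLV Brg1 peaks with wt and dC numbered 0 and 2 at the Rag locus and 1 and 1 at Dntt. EBF1 peaks numbered 0 and 1 at the Rag locus and 0 and 3 at Dntt. Of 6 gained Rag peaks then left, 5 were called with F-GATA3, and the gained counts otherwise stayed within 1.5 times. With a −log10 q of at least 10, chosen after seeing the data, A-MuLV Brg1 peaks numbered 0 and 3 at the Rag locus and 6 and 3 at Dntt. With lists of equal length, 5 gained Rag peaks were left, 5 of them called with each of dC, dPLD and F-GATA3. At Dntt 5 were left, with 4 called with dC, 4 with dPLD and 3 with F-GATA3, A-MuLV Brg1 peaks with wt numbered 11, and EBF1 dC peaks 3.

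With a 10 kb window, 4 gained Rag peaks were left, 4 of them called with each version, and 3 at Dntt, called with dC and dPLD (3 each) and F-GATA3 (1). A-MuLV Brg1 peaks with wt and dC were then 0 and 3 at the Rag locus and 5 and 7 at Dntt, and EBF1 peaks 1 and 1 at the Rag locus and 0 and 1 at Dntt. Fewer peaks enter each of these counts by construction. Counted by site, also chosen after seeing the data, A-MuLV Brg1 with wt and dC had 2 and 6 sites at the Rag locus and 9 and 9 at Dntt. In the 5 settings run on them, A-MuLV Brg1 counts of the Rag locus were higher with dC than with wt, and the order at Dntt turned with lists of equal length (11 with wt, 14 with dC) and with the 10 kb window. The depth behind weak peaks is unknown. No paired analysis was possible because each condition had 1 library.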
